A study of Mus musculus with 4 samples.

Results

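Ccl3, Ccl4, Ccl5 and Ccr1 were followed through the immune cells of the uninjured and contused mouse spinal cord. These 4 genes, 3 ligands and 1 receptor, were taken by symbol from the 31053 genes of each count matrix, and all 4 were detected in every library. Single-cell RNA-seq counts were available for CD45+ cells, that is sorted leukocytes and microglia, of 3-month-old C57BL/6 mice. The 4 libraries were 1 per group. Sham cords were dissociated by the standard protocol (standard sham) or with actinomycin D (ActD sham). Contused cords were taken at 3 and 14 days post injury (dpi). By the study's account sham animals had a laminectomy at T10 without contusion, while the sample titles of both sham libraries speak of healthy spinal cords. Actinomycin D (ActD) blocks transcription and was present from digestion to sorting in the ActD sham and, by the study's account, in both injury libraries, so the standard sham was the one library without it. Mice of both sexes were divided over control, 3 dpi and 14 dpi groups, and each group's cells entered as 1 library per protocol. No comparison between libraries therefore had a replicate check, and no p-value is given.

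CCL3, CCL4 and CCL5 are secreted CC chemokines, small proteins that attract leukocytes by binding G protein-coupled receptors on their surface. CCL3 and CCL4, also called macrophage inflammatory proteins 1α and 1β, are made quickly by activated microglia, macrophages and neutrophils. CCL5 (RANTES) is a product mainly of effector T and NK cells, and CCR1, carried by neutrophils and monocyte-derived cells, binds CCL3 and CCL5. In tissue that is being dissociated, chemokine genes and immediate early genes can be transcribed after the animal has died. The study's pair of sham protocols addresses that question, and the ActD libraries address injury.

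On the mm10 build (GENCODE M21 gene models) the 3 ligand genes lay close together on chromosome 11 and the receptor gene lay on chromosome 9. Ccl3 (ENSMUSG00000000982) spanned chr11:83647844-83649355 on the minus strand with 3 exons. Ccl4 (ENSMUSG00000018930) spanned chr11:83662584-83664683 on the plus strand with 3 exons. Ccl5 (ENSMUSG00000035042) spanned chr11:83525778-83530518 on the minus strand with 3 exons. Ccr1 (ENSMUSG00000025804) spanned chr9:123962124-123968692 on the minus strand with 2 exons. No other annotated gene overlapped any of them. Because neighbouring paralogs could share reads, 66 coding bases around the adjacent cysteine codons that give CC chemokines their name are shown for each ligand, 5′ to 3′, with those 2 codons in capitals. The windows came from the transcripts of that annotation.
Ccl3: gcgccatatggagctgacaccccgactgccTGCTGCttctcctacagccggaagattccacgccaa
Ccl4: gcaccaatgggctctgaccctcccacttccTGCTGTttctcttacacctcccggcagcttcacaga
Ccl5: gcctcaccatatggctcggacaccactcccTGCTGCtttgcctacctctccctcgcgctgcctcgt
Within these windows Ccl3 and Ccl4 were identical at 40 of 66 positions (60.6%), Ccl3 and Ccl5 at 43.9% and Ccl4 and Ccl5 at 48.5%. The longest run of bases shared by whole transcripts was 9 for Ccl3 and Ccl4, 13 for Ccl3 and Ccl5 and 9 for Ccl4 and Ccl5. No long identical stretch was therefore present in which a read of one ligand could be counted for another.

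Between 2135 and 9078 cells were kept per library, with a median of 7435 to 9681 unique molecular identifiers (UMIs, one per captured transcript) per cell. Pairs of libraries shared 3 to 36 cell barcodes, at most 0.697% of the smaller library. Names such as microglia stand for microglia-like clusters, defined by marker genes alone, and Ptprc, which encodes CD45, was detected in 72.5% to 100% of the cells of each class in each library that is compared below. Microglia were 2520 cells in the standard sham, 1614 in the ActD sham, 612 at 3 dpi and 3127 at 14 dpi. Neutrophils were 390, 103, 1979 and 1209 cells in the same order, and macrophages 119, 173, 3428 and 441. T cells (30, 475 and 616) were not named in the ActD sham, and NK cells were named only at 3 dpi (35) and 14 dpi (211). Levels are in CPM, the UMIs of a gene or list per 1000000 UMIs of the class in that library. The 8 neutrophil markers summed to 51684 CPM at 3 dpi and to 313826 to 370263 in the other libraries, so the cells named neutrophils at 3 dpi stood apart. Of them 98.1% were in 1 cluster of the integrated data, which held 27.2% of neutrophils in the ActD sham and 45.5% at 14 dpi. Their median UMI count was 2255, against 4997 to 13650.0 elsewhere.

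Intervals are 95% and cover counting error only. In microglia Ccl3 stood at 4346 CPM in the standard sham, 74.2 in the ActD sham, 558.7 at 3 dpi and 508.4 at 14 dpi. Ccl4 in microglia stood at 8138, 103.8, 1368 and 768.3 CPM in the same order. Both ligands were thus highest after standard dissociation, lowest in the ActD sham, and in between after injury. To compare the share of cells with a transcript at equal depth, each cell was thinned to 1000 UMIs, and at most 7 cells of a class were too shallow for this. Ccl3 was then detected in 77.5% of microglia in the standard sham, 1.67% in the ActD sham, 40.5% at 3 dpi and 16.5% at 14 dpi, and in 94.7%, 9.23%, 91.3% and 43.7% without thinning.

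**Figure D1:**
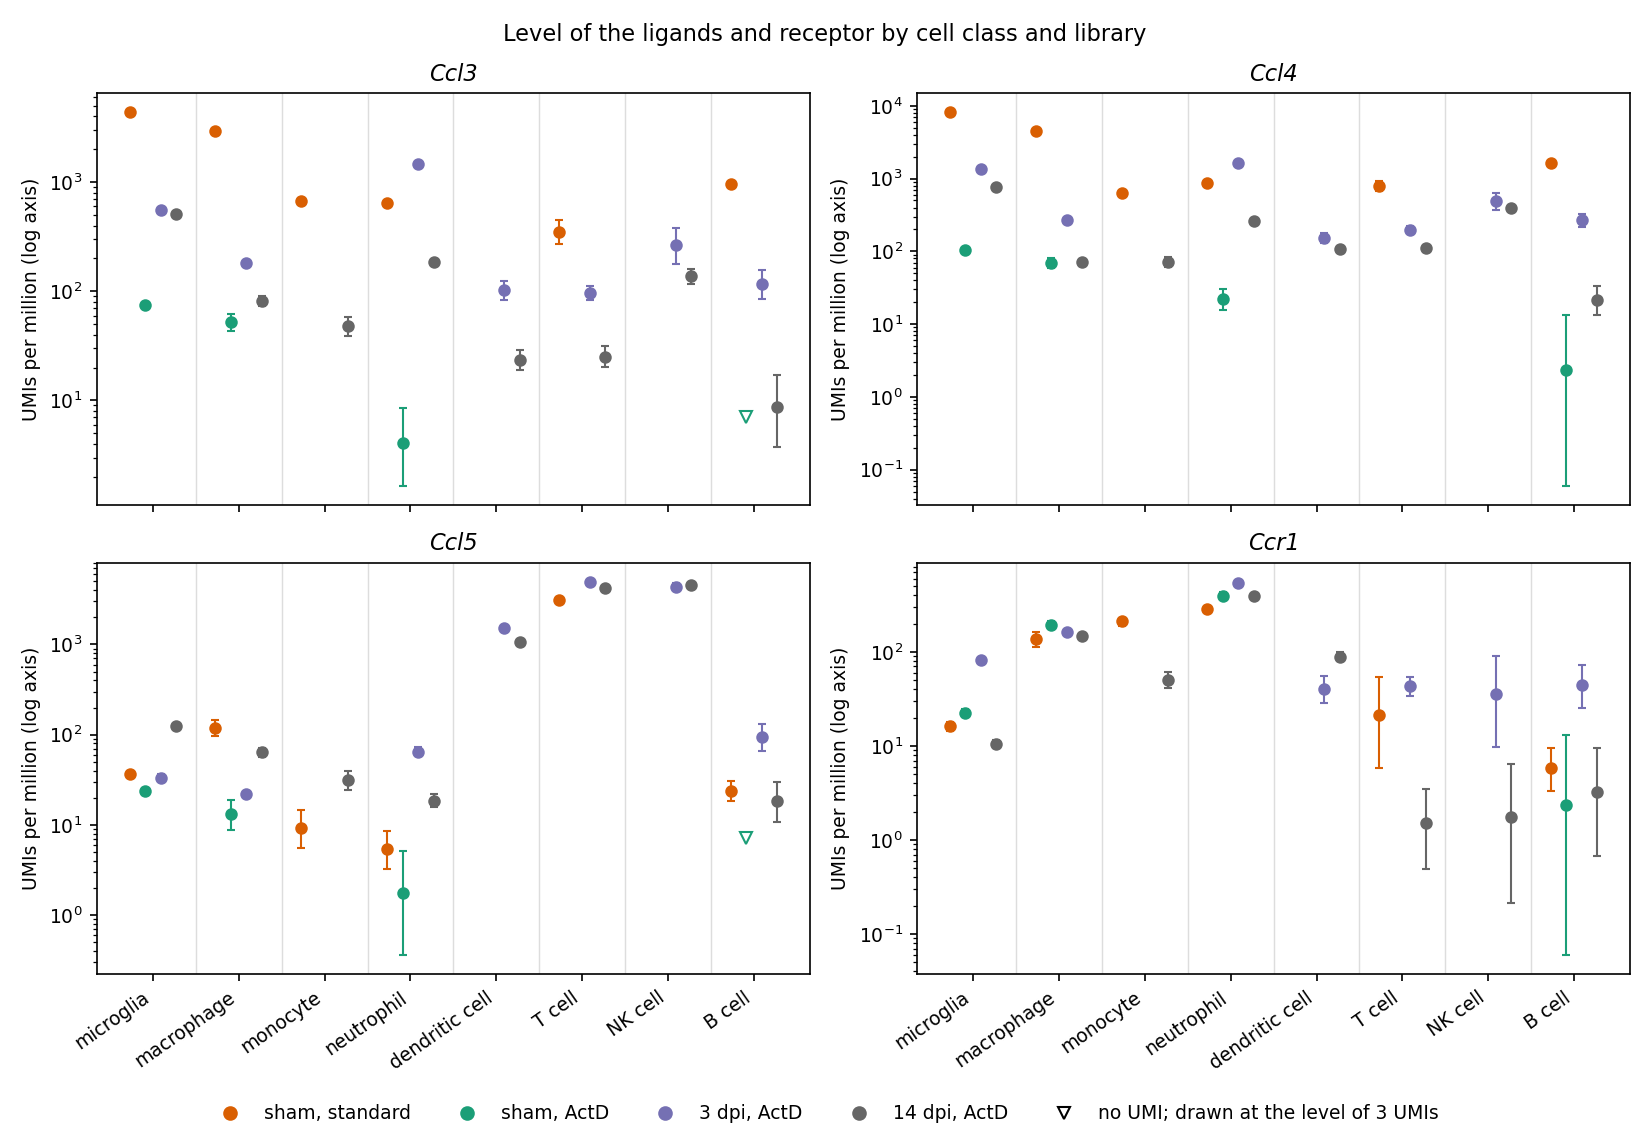
Level of each gene (CPM, log axis) in the named cell classes of the 4 libraries, with 95% counting intervals and an open triangle, at the level of 3 UMIs, where none was found. Ccl3 and Ccl4 of microglia, macrophages and neutrophils are lowest in the ActD sham and higher at 3 dpi, Ccl5 sits highest in T and NK cells, and Ccr1 stays highest in neutrophils.

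The first comparison set the 2 sham protocols side by side in uninjured cord. Each was 1 library, and the software version behind the counts differed too, so the values are not those of dissociation alone. In microglia the standard sham exceeded the ActD sham 58.6-fold for Ccl3 (log2 ratio 5.87, interval 5.79 to 5.95) and 78.4-fold for Ccl4 (log2 ratio 6.29, interval 6.23 to 6.36). Among 12145 genes tested they ranked 63rd and 49th from the top. Ccl5 (36.5 against 23.6 CPM) and Ccr1 (16.1 against 22.2 CPM) were within 2-fold. Of the 4 genes 2 were over 2-fold higher and 0 were over 2-fold lower, where 6.42% of all genes tested were over 2-fold higher and 24.6% over 2-fold lower. The median log2 ratio of all genes was -0.57.

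A single cell carried much of the little Ccl3 and Ccl4 that ActD-treated sham microglia held. It contributed 603 of their 1322 Ccl3 UMIs (45.6%) and 870 of their 1849 Ccl4 UMIs (47.1%). Without it the class stood at 40.4 CPM for Ccl3 and 55.1 CPM for Ccl4. With the top cell of each library left out, an alternative added after the data were seen, the standard sham exceeded the ActD sham 107-fold for Ccl3 (log2 ratio 6.75) and by a log2 ratio of 7.20 for Ccl4. The 12 cells with at least 10 Ccl3 UMIs held 81.3% of the transcripts of these microglia. In the standard sham 1769 of 2520 microglia had at least 10.

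The same comparison in macrophages, which in both shams were the border-associated kind, gave 2968 against 51.8 CPM for Ccl3 (log2 ratio 5.84, interval 5.57 to 6.12) and 4528 against 68.9 CPM for Ccl4 (log2 ratio 6.04). Ccl5 was also higher in the standard sham, at 118.4 against 13.2 CPM, but 1 cell held 67 of its 100 UMIs. Ccr1 was at 137.3 against 194.1 CPM. In all 3 of the 4 genes were over 2-fold higher and 0 over 2-fold lower, against 4.77% and 18.7% of all genes tested.

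Neutrophils gave 642.6 CPM of Ccl3 in the standard sham and 4.11 CPM, only 7 UMIs in 103 cells, in the ActD sham (log2 ratio 7.29, interval 6.25 to 8.61). Ccl4 stood at 880.0 against 22.3 CPM (log2 ratio 5.30). Ccl5 rested on 18 and 3 UMIs and its ratio had an interval that spanned 0 (log2 ratio 1.64, interval -0.14 to 4.05). The receptor was lower instead, with 286.1 CPM of Ccr1 in the standard sham and 397.7 CPM in the ActD sham, a log2 ratio of -0.47. Counted by fold, 3 of the 4 genes were over 2-fold higher and 0 over 2-fold lower, against 15.4% and 8.27% of all genes tested.

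RNA of other cells was present in these droplets. B cells held 2.51% of the Ccl3 UMIs and 2.39% of the Ccl4 UMIs of the standard sham. After thinning 18.6% of them held Ccl3 there. In the ActD sham 0 of 64 did, which allows a share of up to 4.69%. Median depth was 3822.5 UMIs in B cells and 7756.5 in microglia of the standard sham. B cells there carried 22% of the microglial Ccl3 level and 20.3% of the Ccl4 level, and 20.7% of the summed level of 11 microglia markers. Standard-sham neutrophils carried 14.8% of the microglial Ccl3 level and 10.8% of the Ccl4 level beside 9.88% of the microglia markers. For T cells these shares were 8.09%, 9.82% and 6.86%, but 1 of the 30 T cells held 32 of 66 Ccl3 UMIs and 81 of 150 Ccl4 UMIs, and without it T cells stood at 193.4 CPM of Ccl3 and 392.4 CPM of Ccl4. Macrophages carried 68.3% of the microglial Ccl3 level and 55.6% of the Ccl4 level, with 21.3% of the markers. In B cells the ligand shares were thus close to the marker share, and in macrophages they were far above it. The Ccl3 of B cells was not spread evenly, since the 43 of 590 cells with at least 10 UMIs held 88.8% of it. Whether it came from free RNA, doublets or the B cells themselves was not tested. The same holds wherever B cells serve as a reference below.

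Lists of related genes were compared in the same way between standard and ActD sham microglia. All 20 immediate early genes, which respond first to a stimulus and include many transcription factors, were over 2-fold higher. Their median log2 ratio was 5.87, beside -0.57 for all genes. Rhob was lowest of them (2613.8 against 644.6 CPM) and Fos highest (5649 against 6.51 CPM). All 13 NF-kB targets and cytokines were over 2-fold higher (median log2 ratio 4.51), among them Ptgs2, the inducible cyclooxygenase, at 55.0 against 0.0561 CPM. Of 12 other chemokines tested 6 were over 2-fold higher and 1 lower. The neutrophil attractant Cxcl2 was highest among them, at 423.5 against 0.168 CPM, and Cxcl9 was lowest, at 0.694 against 5.84 CPM. The ActD sham values of Ptgs2 and Cxcl2 rested on no more than 3 UMIs, so the size of these contrasts is uncertain. Of 10 other chemokine receptors tested 3 were higher, led by the atypical receptor Ccrl2 (899.9 against 11.2 CPM), and 2 lower, with Cx3cr1 lowest (2015 against 4987 CPM). Over all genes tested 6.42% were over 2-fold higher and 24.6% lower. The counts of other chemokines and receptors that were lower were thus not above the background. Interferon response genes were lower instead, with 0 of 14 higher and 13 lower and a median log2 ratio of -2.35. Oasl2 was lowest of these, at 4.02 against 46.6 CPM.

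Injury was read against the ActD sham, which serves as the baseline of both time points, so the values of the 3 and 14 dpi comparisons share that library. In microglia at 3 dpi Ccl3 was 7.53-fold higher (log2 ratio 2.91, interval 2.83 to 3.00) and Ccl4 13.2-fold higher (log2 ratio 3.72). Ccr1 was higher as well, at 81.2 against 22.2 CPM (log2 ratio 1.87), and Ccl5 was at 33.4 against 23.6 CPM. Of the 4 genes 3 were over 2-fold higher and 0 over 2-fold lower, against 11.3% and 33.2% of all genes tested. Without the top cell of each library the log2 ratios were 3.78 for Ccl3 and 4.61 for Ccl4. The summed macrophage markers in these 612 microglia reached 3076 CPM, 20.9% of the level in macrophages (14732 CPM). B cells of the same library, with no such identity, carried 14.2%. The microglia of 3 dpi had a median depth of 20209.5 UMIs, beside 9693.5 in the ActD sham. The part that macrophage RNA or doublets had in the Ccr1 value was not tested.

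At 14 dpi microglia held Ccl3 at 6.85 times and Ccl4 at 7.40 times the level of the ActD sham (log2 ratios 2.78 and 2.89). Without the top cells the log2 ratios were 3.62 and 3.77. Ccl5 was higher too, at 126.5 against 23.6 CPM (log2 ratio 2.42, interval 2.28 to 2.57), and Ccr1 lower, at 10.6 against 22.2 CPM (log2 ratio -1.07). In the ActD sham 8 microglia held 81.5% of the 421 Ccl5 UMIs of the class, and without the top cells the Ccl5 log2 ratio was 2.70. With all cells 3 of the 4 genes were over 2-fold higher at 14 dpi and 1 over 2-fold lower, against 5.66% and 20.4% of all genes tested. The median log2 ratio of all genes was -0.53 in that comparison, so Ccr1 was lower where most genes were lower too, though by less. From 3 to 14 dpi Ccl3 of microglia differed by a log2 ratio of -0.14 and Ccl4 by -0.83, while Ccl5 was higher by 1.92 and Ccr1 lower, at -2.94. That left 1 gene over 2-fold higher and 1 over 2-fold lower, against 10.7% and 12.9% of all genes tested. Although the class levels of Ccl3 were close, the share of thinned microglia that held it was 40.5% at 3 dpi and 16.5% at 14 dpi. The top 10% of microglia by Ccl3 held 34.5% of its UMIs at 3 dpi and 81.9% at 14 dpi.

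**Figure D2:**
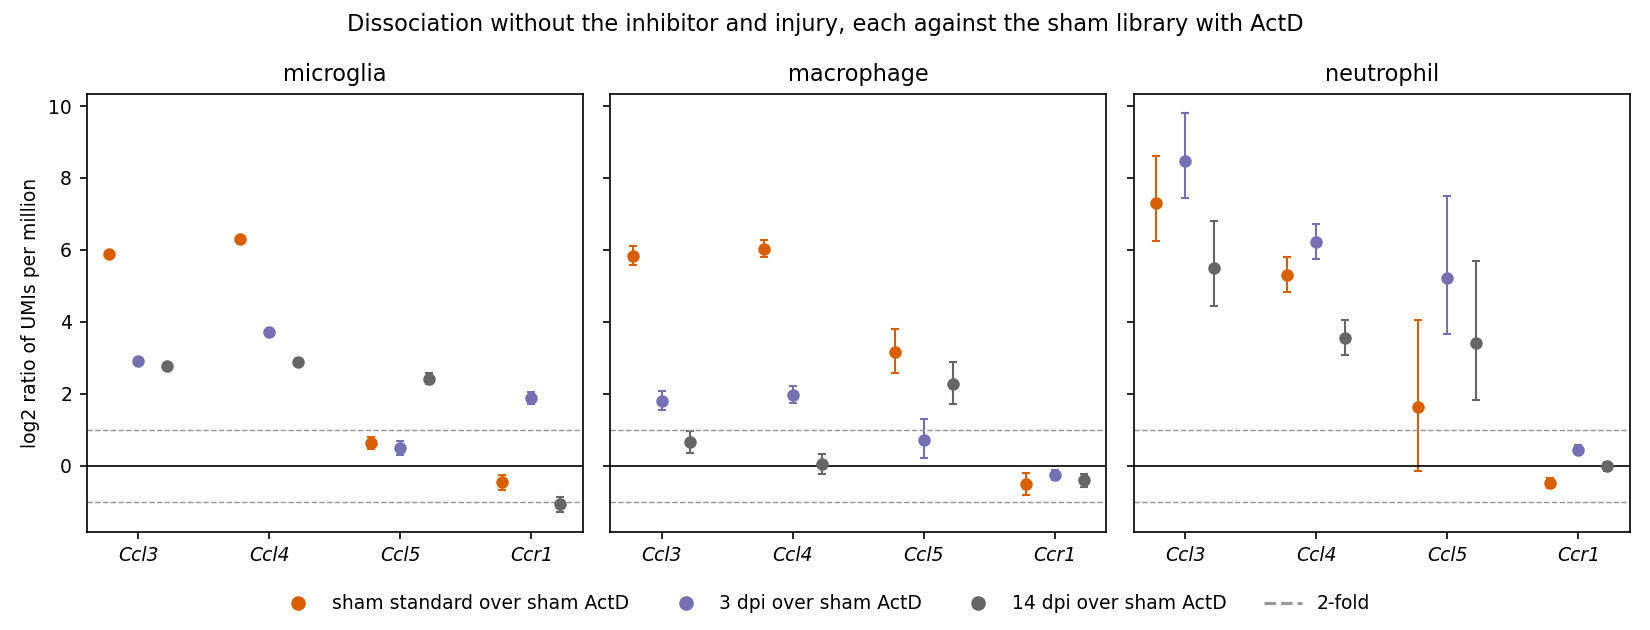
Log2 ratio of each gene over the ActD sham in microglia, macrophages and neutrophils, for the standard sham, 3 dpi and 14 dpi, with 95% counting intervals and dashed lines at 2-fold. All 3 comparisons share the ActD sham library. In microglia and macrophages the standard sham is highest for Ccl3 and Ccl4 (log2 ratios 5.84 to 6.29), in neutrophils 3 dpi is (8.48 and 6.22), and Ccr1 stays within 2-fold in macrophages and neutrophils.

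The lists that were higher after standard dissociation differed between the injury times. At 3 dpi 17 of the 20 immediate early genes were over 2-fold higher in microglia than in the ActD sham and 1 was lower (median log2 ratio 2.48), with Fos at 866.0 CPM. At 14 dpi 7 were higher and 2 lower (median log2 ratio 0.13), with Fos at 13.4 CPM. NF-kB targets counted 6 higher and 3 lower of 13 at 3 dpi, and 2 higher and 1 lower at 14 dpi. Over all genes tested the shares were 11.3% higher and 33.2% lower at 3 dpi and 5.66% and 20.4% at 14 dpi. The counts of NF-kB targets that were lower at either time were thus not above the background. Other chemokines counted 9 higher and 1 lower at both times, of 14 tested at 3 dpi and 13 at 14 dpi, with Cxcl2 highest at 387.4 and 14.1 CPM. Interferon response genes were lower at 3 dpi (10 of 14 over 2-fold lower, 0 higher) and counted 4 higher and 0 lower at 14 dpi. Immediate early genes in the 3 dpi library were thus high although ActD had been present. What share of the 3 dpi chemokine level arose before dissociation was not tested.

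Microglia were not uniform in Ccl3 and Ccl4. In each library clustered on its own, a cluster with Spp1 (osteopontin) and Lpl (lipoprotein lipase) among its leading genes stood highest in Ccl3 and Ccl4 among the microglia clusters of the ActD sham and of 14 dpi. At 14 dpi its 1506 cells held Ccl3 at 729.1 CPM and Ccl4 at 1072 CPM, which was 91.7% and 89.3% of the transcripts of these genes in cells named microglia. Those cells were part of 3127 named microglia. Their median depth was 15264.5 UMIs, beside 7098.5 in the P2ry12-led and 8756 in the interferon-led cluster described next. The size and depth of the cluster thus enter its shares of transcripts. The P2ry12-led cluster, with the homeostatic receptor gene in front (906 cells), stood at 71.0 and 85.8 CPM. An interferon-led cluster (Cxcl10, Ccl12, Ifit2) of 715 cells stood at 161.3 and 368.6 CPM, and it held 56.7% of microglial Ccl5 at 393 CPM. Outside these figures lay 1207 cells of 14 dpi led by Apoc4, Apoc1 and Apoe, whose best candidate class was microglia but which stayed unnamed. They stood at 93.1 CPM of Ccl3, 88.6 CPM of Ccl4 and 155.4 CPM of Ccl5. At 3 dpi the cells named microglia formed a single cluster. The clustering had left out cell cycle genes and was adjusted for cell cycle scores, so cycling and other microglia may lie in it together. Another 149 cells of 3 dpi, led by the cell cycle genes Top2a and Mki67, stayed unnamed. Their naming scores were 0.56 for injury macrophages and 0.47 for microglia. The study described proliferation-associated microglia as the main microglia at 3 dpi, so the named cluster may not be complete. The clustering left out these 4 genes, and the clusters are a description with no test.

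In the ActD sham the Spp1-led and Lpl-led cluster was 53 cells and held 71.6% of microglial Ccl3, at 971.5 CPM, and 74.3% of Ccl4, at 1411 CPM. Of those cells 8 had at least 10 Ccl3 UMIs and 28 had none. Its top cell alone held 45.6% of microglial Ccl3 and 47.1% of microglial Ccl4, which is most of the cluster's share. Without its top cell the cluster stood at 364 CPM for Ccl3 and 535 CPM for Ccl4. The other microglia clusters of that library lay between 8.69 and 35.7 CPM of Ccl3. In the standard sham the corresponding 95 cells reached 5922 CPM of Ccl3 and 13538 CPM of Ccl4, beside a class at 4346 and 8138 CPM, and the largest cluster there (1281 cells, led by Sgk1 and Fos) stood at 4631 CPM of Ccl3. The ligands were thus concentrated in a few cells of a small cluster in the ActD sham and spread over the whole class in the standard sham.

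**Figure D3:**
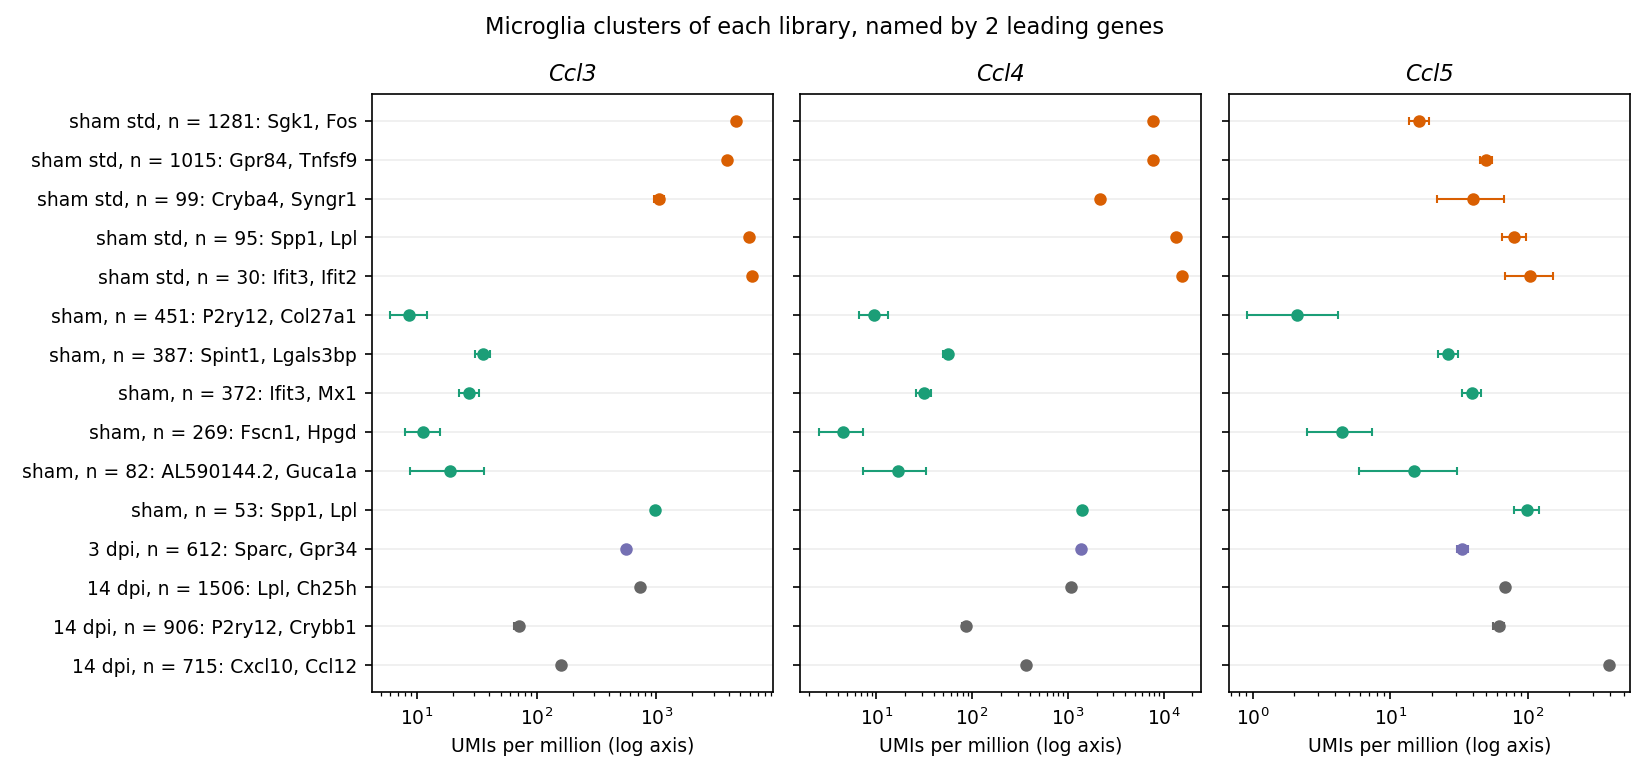
Ccl3, Ccl4 and Ccl5 level (CPM, log axis) of each microglia cluster in each library, with 95% counting intervals. Each cluster is named by its first leading genes, leaving out sex-linked genes and the ligands themselves. The clusters with Spp1 or Lpl in front lie above the others of the ActD sham (971.5 CPM of Ccl3 against 8.69 to 35.7) and of 14 dpi (729.1 against 71.0 and 161.3).

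Neutrophils showed the highest Ccl3 level of any named class at 3 dpi. Ccl3 stood at 1465 CPM and Ccl4 at 1659 CPM, after 4.11 and 22.3 CPM in the ActD sham, and before 185.5 and 261.7 CPM at 14 dpi. The log2 ratio of 3 dpi over the ActD sham was 8.48 for Ccl3 (interval 7.43 to 9.79, from 7 UMIs in the sham) and 6.22 for Ccl4. Over 12 alternatives these ran from 4.23 to 9.28 and from 4.49 to 7.12, both lowest with each library clustered alone. Ccl5 was at 65.0 against 1.76 CPM, or 42.4 CPM at 3 dpi without 1 cell that held 108 of 310 UMIs. B cells of 3 dpi stood at 94.7 CPM of Ccl5, or 34.0 without 1 cell with 22 of 34 UMIs, so neutrophil Ccl5 was not set apart from the level in B cells. After thinning, 51.2% of neutrophils held Ccl3 at 3 dpi, 9.77% at 14 dpi and 0.971% in the ActD sham, and without thinning 65.5%, 17.0% and 3.88%. B cells of 3 dpi, at a median of 2517 UMIs, held it in 8.33% after thinning. Relative to microglia of the same library the 3 dpi neutrophils carried 262% of the Ccl3 level and 121% of the Ccl4 level beside 17.5% of the microglia markers. At 3 dpi 3 of the 4 genes were over 2-fold higher than in the ActD sham and 0 over 2-fold lower, against 51.9% and 7.03% of all genes tested. A count of members past 2-fold upward is therefore near the background there, and the median log2 ratio of all genes was 1.07. Both ligands stood well above that median.

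At 14 dpi the log2 ratios over the ActD sham in neutrophils were 5.50 for Ccl3, 3.55 for Ccl4 and 3.40 for Ccl5, so that 3 of the 4 genes were over 2-fold higher and 0 lower, against 6.16% and 6.05% of all genes tested. Ccl5 rested on 3 UMIs in the sham, and its 18.6 CPM at 14 dpi was close to the 18.5 CPM of B cells. For 14 over 3 dpi the log2 ratios were -2.98 for Ccl3, -2.66 for Ccl4 and -1.81 for Ccl5, with 0 genes over 2-fold higher and 3 over 2-fold lower, against 5.79% and 56.3%. The median log2 ratio of all genes was -1.19 in that comparison. Among 13 other chemokines tested in it 12 were over 2-fold lower and 0 higher. 

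Neutrophils fell into 2 clusters of the integrated data, one led at 14 dpi by Cxcl2 and Il1b and one by the granule and secretory genes Mmp8 and Retnlg, in changing proportions. In the first, Ccl3 stood at 367.5 CPM in the standard sham (135 cells), 7.01 in the ActD sham (28 cells, 2 UMIs), 1544 at 3 dpi (1942 cells) and 739.4 at 14 dpi (550 cells, 89.3% of neutrophil Ccl3). In the second it stood at 696.5, 3.52, 192.8 and 25.5 CPM from 255, 75, 37 and 659 cells. Within either cluster Ccl3 was thus higher at 3 dpi than in the ActD sham and lower again at 14 dpi, while the class at 3 dpi was nearly all of the first cluster. B cells ran in the same order, at 0 CPM in the ActD sham, 117.0 at 3 dpi (64.9 without 1 cell) and 8.71 at 14 dpi. The part that RNA from other cells had in the 192.8 CPM of the second cluster, from 37 cells, was not tested.

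In macrophages the differences after injury were smaller. Ccl3 stood at 51.8 CPM in the ActD sham, 181.8 at 3 dpi and 81.1 at 14 dpi, and Ccl4 at 68.9, 270.6 and 71.0 CPM. At 3 dpi the log2 ratios over the ActD sham were 1.81 and 1.97, and 2 of the 4 genes were over 2-fold higher and 0 over 2-fold lower, against 8.60% and 34.0% of all genes tested. At 14 dpi they were 0.65 and 0.04, the latter with an interval of -0.24 to 0.33, and only Ccl5 was over 2-fold higher (63.7 against 13.2 CPM), against 3.68% higher and 10.9% lower of all genes. From 3 to 14 dpi 1 gene was over 2-fold higher (Ccl5) and 2 lower (Ccl3 and Ccl4), against 19.1% and 8.60%. Ccl3 (log2 ratio -1.16) stayed past 2-fold in 8 of 12 alternatives, which ran from -2.33 to -0.79. In the ActD sham 1 cell held 82 of 157 macrophage Ccl4 UMIs, and at 14 dpi 1 cell held 154 of 311. Without the top cells Ccl4 stood at 33.2 and 36.1 CPM, and the log2 ratio of 3 dpi over the ActD sham was 3.01. Macrophages of 3 dpi were mostly of an injury kind that was not named in the other libraries. The 788 border-associated cells of 3 dpi stood at 232.4 CPM of Ccl3 and 367.1 CPM of Ccl4, above the 2640 injury-associated cells at 171.6 and 251.1 CPM. These 2 kinds were not cleanly separated. The border-associated cluster had naming scores of 1.94 for border and 1.66 for injury markers, beside injury scores of 1.06 to 1.48 in clusters named injury-associated. B cells of 3 dpi had 270.3 CPM of Ccl4, 99.9% of the macrophage level, beside 14.2% of the macrophage markers. One B cell held 28 of their 97 Ccl4 UMIs (194.6 CPM without it). After thinning 18.5% of macrophages and 21.2% of B cells held Ccl4. At full depth, a median of 15716 UMIs in macrophages and 2517 in B cells, 412 of 3428 macrophages and 1 of 132 B cells had at least 10 Ccl4 UMIs.

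By sum, microglia held most Ccl3 in 3 of the 4 libraries. Their share of all Ccl3 UMIs was 83.3% in the standard sham, 79.5% in the ActD sham, 25.8% at 3 dpi and 79.6% at 14 dpi, while they held 42.1%, 69.2%, 14.5% and 39.8% of all UMIs of any gene. At 3 dpi macrophages held 35% of Ccl3 and neutrophils 23.2%, the latter from 4.97% of all UMIs. For Ccl4 the microglial share was 85.6%, 83.3%, 36.1% and 82.9%. Unnamed cells are counted in the totals.

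**Figure D4:**
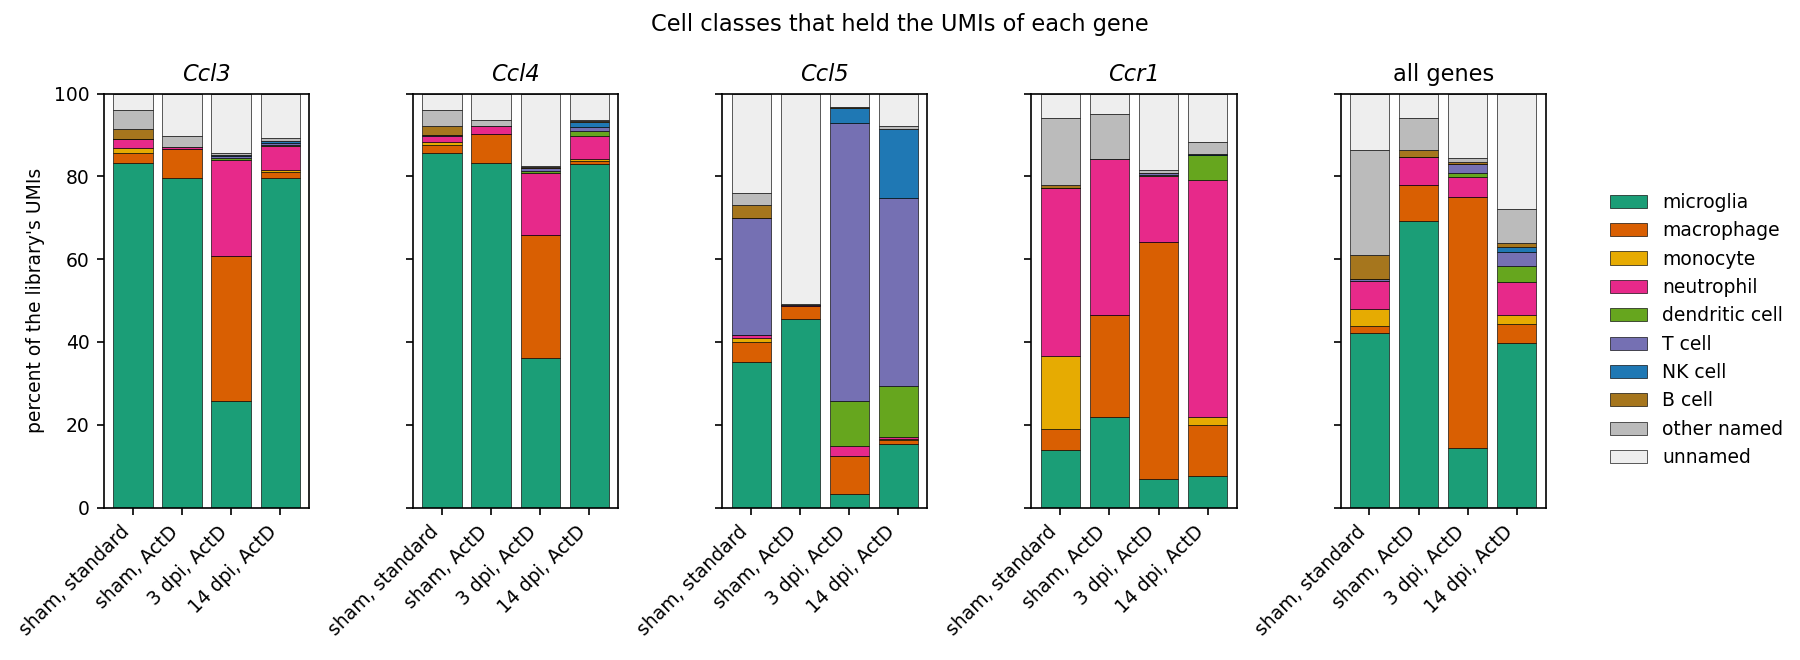
Share (%) of the UMIs of each gene held by each cell class in the 4 libraries, unnamed cells included. Microglia hold 79.5% to 83.3% of Ccl3 in the shams and at 14 dpi and 25.8% at 3 dpi, while T cells hold 28.2% of Ccl5 in the standard sham, 67.0% at 3 dpi and 45.4% at 14 dpi, and microglia 35.2%, 3.37% and 15.5%.

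Ccl3 and Ccl4 were also detected together in single cells. Of thinned microglia with Ccl3 at 14 dpi 56.7% held Ccl4, against 8.46% of those without. In the ActD sham the shares were 37.0% and 0.882%, at 3 dpi 73.4% and 41.8%, and in the standard sham 88.1% and 62.4%. Neutrophils gave 56.0% against 28.6% at 3 dpi and 52.5% against 4.22% at 14 dpi. Ccr1 was shared evenly instead, in 40.4% of Ccl3-positive and 38.3% of Ccl3-negative neutrophils at 3 dpi. Cells with more UMIs before thinning, and RNA from outside the cell, enter both members of each pair.

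The level of Ccl5 was highest in T cells, NK cells and a small dendritic cell cluster. By sum, T cells held 28.2% of its UMIs in the standard sham, 67.0% at 3 dpi and 45.4% at 14 dpi, and microglia, the larger class, 35.2%, 3.37% and 15.5%. T cells held it at 3134 CPM in the standard sham (30 cells), 4922 at 3 dpi and 4261 at 14 dpi, and 63.3%, 62.3% and 63.8% of them after thinning. Without thinning the shares were 63.3%, 71.8% and 74.8%. NK cells stood at 4355 CPM at 3 dpi and 4571 at 14 dpi, with 77.1% and 71.6% of cells after thinning. Cells with a myeloid and a lymphoid marker transcript together had been dropped, and how many NK cells this removed was not tested. B cells, taken as a reference for RNA of other cells, held Ccl5 in 0.339% to 3.03% of thinned cells in these libraries. Their median depths were 2517 to 3822.5 UMIs against 2932 to 5688 in T and NK cells. Most B cell Ccl5 was in 1 cell in the standard sham (57 of 66 UMIs) and at 3 dpi (22 of 34), and its source was not tested. The Ccl5 level of T and NK cells was thus nearly the same at both times after injury. From 3 to 14 dpi the log2 ratio was -0.21 in T cells (interval -0.25 to -0.17) and 0.07 in NK cells (interval -0.06 to 0.21). In T cells 0 of the 4 genes were over 2-fold higher and 2 lower, Ccl3 (96.6 to 25.3 CPM) and Ccr1 (43.2 to 1.5 CPM), against 6.50% and 6.48% of all genes tested. In B cells of 3 dpi Ccr1 stood at 44.6 CPM, no lower than in T cells, and Ccl3 at 117.0 CPM, or 64.9 without 1 cell that held 19 of 42 UMIs. At 14 dpi 1 T cell held 39 of 84 Ccl3 UMIs (13.6 CPM without it). In NK cells 0 of the 3 genes tested were past 2-fold in either direction, against 12.8% higher and 9.22% lower.

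T cells with Cd8 transcripts and none of Cd4 held more Ccl5 than those with Cd4 alone. At 3 dpi the 140 Cd8 cells stood at 8816 CPM and the 204 Cd4 cells at 2891 CPM. At 14 dpi 259 Cd8 cells stood at 6379.5 CPM and 206 Cd4 cells at 2301 CPM. The share of thinned cells went from 72.9% to 86.5% in Cd8 cells and from 55.4% to 43.7% in Cd4 cells. The γδ T cells stood far lower, at 10.9 CPM at 3 dpi (23 cells) and 140.1 CPM at 14 dpi (133 cells). The share of thinned Cd8 T cells with Ccl4 went from 23.6% at 3 dpi to 7.34% at 14 dpi, while their Ccl5 share rose. Ccl4 stood lower than Ccl5 in NK cells, at 494.7 and 393.7 CPM, and in Cd8 T cells, at 332.8 and 121.6 CPM. B cells stood at 270.3 and 21.8 CPM, or 194.6 CPM at 3 dpi without 1 cell. At 3 dpi 23.6% of thinned Cd8 T cells and 21.2% of thinned B cells held Ccl4, so these shares were close. Cd4 T cells of 3 dpi stood lower than both, at 127.5 CPM and 11.3% of thinned cells. The part that RNA from other cells had in the Cd8 value of 3 dpi was not tested. At 14 dpi NK cells carried 51.2% of the microglial Ccl4 level beside 2.39% of the microglia markers. Of 12 cytotoxic and effector lymphocyte genes tested in T cells, from 3 to 14 dpi 4 were over 2-fold higher and 1 lower, against 6.50% and 6.48% of all genes tested. Xcl1, a chemokine gene of Cd8 T and NK cells, was highest (4.80 to 240.9 CPM), and granzyme A (Gzma) was lowest (374.1 to 184.3 CPM). In NK cells 2 of 9 were higher and 0 lower, against 12.8% and 9.22%, a share near the background, with Xcl1 again highest (556.5 to 1555 CPM).

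Dendritic cells owed their Ccl5 to one cluster. It was led by Ccr7, the receptor gene of migratory dendritic cells, and held 98.3% of the dendritic Ccl5 UMIs at 3 dpi from 70 cells at 3454 CPM and 88.5% at 14 dpi from 37 cells at 12240.1 CPM. The remaining dendritic cells stood at 46.6 CPM (56 cells, with Xcr1 among the leading genes) and 134 CPM (321 cells, led by Cd209a), and their leading genes differed between the times. For the whole class, at 1534 and then 1078 CPM, the log2 ratio between times was -0.51, and the Ccr7-led cluster made up 55.6% and 10.3% of the dendritic cells. In all, from 3 to 14 dpi 1 of the 4 genes was over 2-fold higher in dendritic cells (Ccr1, 40.4 to 89.1 CPM) and 1 lower (Ccl3, 102.1 to 23.6 CPM), against 12.8% and 6.62% of all genes tested. Both values of 3 dpi were near those of B cells (44.6 and 117.0 CPM), with counting intervals that overlapped. Without the top cell of each class Ccl3 stood at 75.8 CPM in dendritic cells and 64.9 CPM in B cells. The Cd209a-led cluster held all Ccr1 and Ccl3 UMIs of the dendritic cells at 14 dpi.

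In the ActD sham, where no T or NK cell cluster reached the 20 cells needed for a name, 2 small groups still held Ccl5. One of 15 cells, in the integrated cluster named T cells elsewhere, stood at 2515 CPM, and one of 4 cells, in the cluster named NK cells elsewhere, at 8539.7 CPM. Unnamed cells together held 50.9% of the Ccl5 of that library from 5.88% of all UMIs, and microglia 45.5% from 69.2%. In the standard sham 8 cells of the latter cluster stood at 6640.7 CPM. Ccl5 was therefore high in the small lymphocyte clusters of both shams, with and without ActD.

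**Figure D5:**
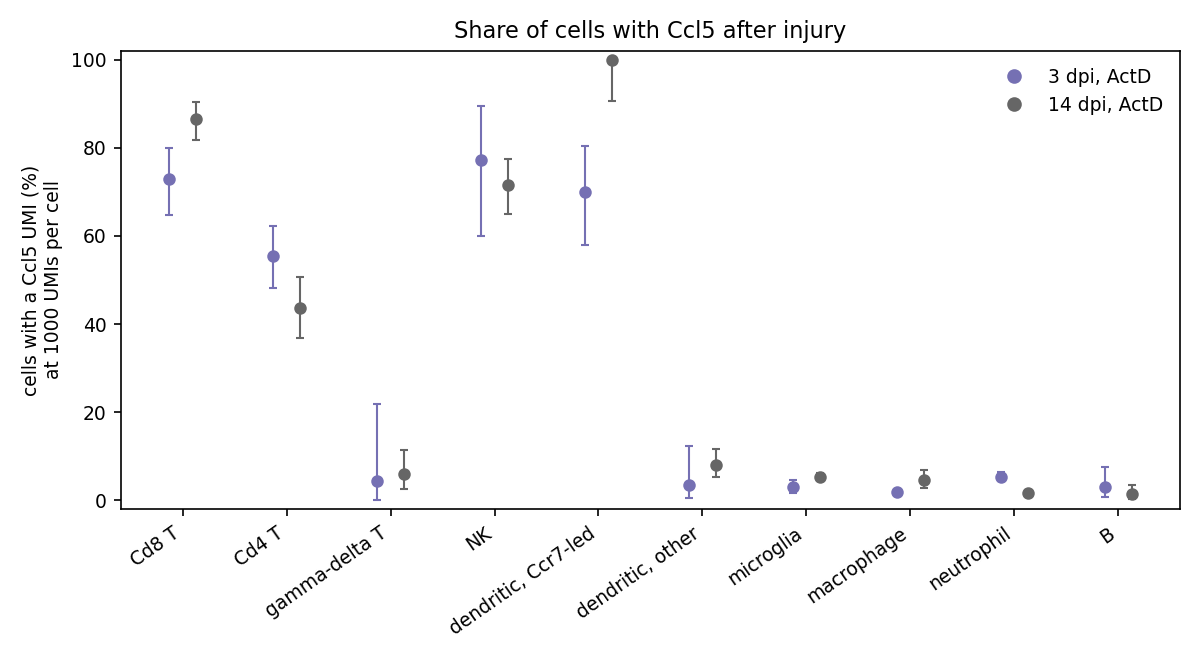
Share (%) of cells with Ccl5 after thinning to 1000 UMIs at 3 and 14 dpi, by cell class, with T cells split by Cd8 and Cd4 and dendritic cells by the Ccr7-led cluster, with 95% exact binomial intervals. Cd8 T cells, NK cells and Ccr7-led dendritic cells lie between 70.0% and 100%, Cd4 T cells at 55.4% and 43.7%, and B cells at 3.03% and 1.41%.

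Ccr1, the receptor gene, was highest in neutrophils of every library. It stood at 286.1 CPM in the standard sham, 397.7 in the ActD sham, 543.0 at 3 dpi and 392.9 at 14 dpi, in 30%, 40.8%, 39.4% and 39.7% of thinned cells and 82.3%, 90.3%, 61.6% and 80.6% without thinning. Macrophages came next in the 3 ActD libraries, at 194.1, 161.4 and 146.9 CPM, with an interval at 3 dpi that overlapped that of myeloid progenitors (156.0 CPM). Microglia were at 16.1 CPM in the standard sham, 22.2 in the ActD sham, 81.2 at 3 dpi and 10.6 at 14 dpi. B cells stood at 5.79, 2.37, 44.6 and 3.27 CPM in the 4 libraries, so the level in B cells was also highest at 3 dpi. Its level was thus highest in other cells than those that held most Ccl3 and Ccl4 in sham cord and at 14 dpi.

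Within neutrophils the log2 ratio of Ccr1 over the ActD sham was 0.45 at 3 dpi (interval 0.33 to 0.57) and -0.02 at 14 dpi (interval -0.14 to 0.11). From 3 to 14 dpi it was -0.47 (interval -0.54 to -0.39), while the median of all genes was -1.19, and it turned to 0.75 under TMM scaling, a scaling that sets the bulk of genes to no change. The direction of Ccr1 in neutrophils between these times therefore could not be given. Within libraries Ccr1 was uneven over neutrophil clusters. At 14 dpi the Cxcl2-led and Il1b-led cluster held 838.7 CPM and the Mmp8-led and Retnlg-led cluster 264.2 CPM. The same clusters held 521.5 and 239.9 CPM in the standard sham, 680.1 and 340.9 CPM in the ActD sham, and 554.8 and 353.5 CPM at 3 dpi, so the first stood higher in all 4 libraries. At 3 dpi border-associated macrophages, which also scored high for injury markers, stood at 272.8 CPM of Ccr1 and injury-associated ones at 139.0. An unnamed cluster of 527 cells led by Plac8 and Ly6c2, genes of monocytes, stood at 377 CPM.

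Genes whose levels ran most like each member were sought over 28 pairs of class and library and 12466 genes, as a description across pairs that share libraries. Ccl3 and Ccl4 were alike at r = 0.967. Nearest to Ccl3 otherwise were Atf3 (r = 0.900), Maff (0.863) and Egr1 (0.835), all stress or immediate early transcription factors, and nearest to Ccl4 were Maff (0.897) and Atf3 (0.875). Ccl5 ran with Serpinb9 (0.884), an inhibitor of granzyme B, and Ppm1j (0.852). Ccr1 ran with Alox5ap (0.887), the 5-lipoxygenase activating protein of myeloid cells, and Rasgrp4 (0.869). The ligands did not all run together, with r = 0.070 between Ccl3 and Ccl5, and Ccl3 and its receptor gene were at r = 0.283.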

How the data were processed

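CD45+ cells had been captured on a 10x platform with 3′ libraries. The authors aligned reads to mm10 with Cell Ranger and deposited 1 matrix of UMI counts per library, raw and not normalized. By the matrix headers, version 3.0.1 had made the standard sham and 3 dpi files and 3.1.0 the others, so in the sham pair version and dissociation protocol cannot be told apart, and version also differed between the ActD sham and 3 dpi and between 3 and 14 dpi.

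Cells under 600 genes or over 10% mitochondrial UMIs were dropped, as were cells in which a myeloid marker transcript occurred together with a lymphoid one (26 to 870 a library, markers not reported here) and those with the highest Scrublet scores at the expected doublet rate (42 to 931). Libraries were integrated in Seurat 5.3.0 under R 4.3.3 (2000 features, 50 dimensions, resolution 0.6), and mononuclear phagocytes were reclustered per library (30 dimensions), without the 4 genes and the gene lists (89 genes). The reclustering also left out cell cycle and histone genes and was adjusted for cell cycle scores. Clusters of at least 20 cells were named from 18 marker lists, and 754, 153, 1348 and 2122 cells stayed unnamed. Naming thresholds were set after clusters had been seen, and the members and lists were chosen with earlier results of these data known.

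UMIs were summed per class and library. Intervals are exact (Poisson, conditional binomial, Clopper-Pearson), and a count of 0 is read against 3 counts. UMIs of 1 cell are not independent, so intervals are too narrow where few cells hold a gene. Genes with at least 20 UMIs in a pair of libraries entered the 2-fold counts. On counts simulated as Poisson draws the intervals covered 95.3% to 96.4% of true ratios over 4 comparisons in microglia and neutrophils. The intervals assume that same model, so the simulation checks the computation and not the effect of UMIs concentrated in few cells. Genes named from a list had its highest or lowest log2 ratio. Likeness is Pearson's r of log2 (CPM + 1) over classes of at least 50 cells, among genes with at least 200 UMIs. Alternatives covered clustering, naming, cell filters, doublets, scaling and thinning. Scanpy 1.11.5, scipy 1.17.1 and numpy 2.4.6 were used.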

Additional observations from a re-analysis of the deposited data

How the results depend on the processing

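No paired analysis was possible because each group was 1 library and the labels give no replicate numbers. The log2 ratio of Ccl3 in standard over ActD sham microglia (5.87) was 5.72 with cells named one by one, 6.09 with a stricter cell filter, 5.73 with a looser one, 6.68 without cells holding a marker of another class, 6.41 under TMM scaling, 6.43 as a mean over cells and 6.75 without the top cells. For 3 dpi over the ActD sham (2.91) it was 3.20 at resolution 1.2, 2.75 one by one, 3.05 stricter, 2.80 looser, 4.53 without cells holding another marker, 3.37 under TMM, 3.07 without mitochondrial and ribosomal genes, 3.74 over cells and 3.78 without the top cells. For 14 dpi (2.78) it was 2.36 with each library clustered alone, 2.52 at resolution 1.2, 2.35 one by one, 3.00 stricter, 2.31 looser, 2.37 with doublets kept, 3.59 without cells holding another marker, 2.43 with unnamed clusters given their best class (added after the data were seen), 3.34 under TMM, 2.89 without mitochondrial and ribosomal genes, 3.25 over cells and 3.62 without the top cells. Ccl3 of neutrophils, 14 over 3 dpi (-2.98), was -4.39 at resolution 1.2, -3.70 one by one, -3.87 stricter, -3.14 with doublets kept, -1.76 under TMM, -3.08 without mitochondrial and ribosomal genes and -1.90 over cells. These ratios stayed past 2-fold under every alternative run. Ccr1 of neutrophils, 14 over 3 dpi (-0.47), was -0.58 at resolution 1.2, -1.14 one by one, -0.82 stricter, -0.86 with doublets kept, 0.75 under TMM, -0.57 without mitochondrial and ribosomal genes and 0.11 over cells, so its sign depended on the scaling. Over 2-fold higher in standard sham microglia were 780 genes, and 2233 with no filter on low counts, 428 with at least 200 UMIs and 1175 under TMM, and over 2-fold lower 2984, 5299, 1738 and 1199. The median log2 ratio of all genes there was -0.57 before TMM scaling. Other values that moved sign were Ccl5 in microglia, standard over ActD sham (0.63, range -0.69 to 1.16), Ccr1 there (-0.46, range -1.13 to 0.07), Ccr1 in neutrophils at 3 dpi over the ActD sham (0.45, range -0.43 to 0.74) and Ccl5 in NK cells, 14 over 3 dpi (0.07, range -0.45 to 0.27). Ccl3 in neutrophils ranged from 2.99 to 7.66 for standard over ActD sham and from 4.23 to 9.28 for 3 dpi over the ActD sham. Ccl3 in macrophages, 14 over 3 dpi (-1.16), ranged from -2.33 to -0.79 and stayed past 2-fold in 8 of 12 alternatives. Microglia of the standard sham could not be named with each library clustered alone, nor microglia and NK cells of 3 dpi with doublets kept, so those values are missing. Depth limits the neutrophils (7 UMIs of Ccl3) and B cells (0) of the ActD sham, and 1 library per group leaves every difference between libraries without an estimate of the spread between animals.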
